A study of Mus musculus with 721 samples.

Results

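The genes described here are 8 that encode the enzymes and cofactors which write, copy and oxidise DNA methylation, namely Dnmt1, Uhrf1, Dnmt3a, Dnmt3b, Dnmt3l, Tet1, Tet2 and Tet3. They were chosen by symbol from the 24483 gene rows of a single-cell RNA-seq count table, and all 8 have a row and passed the filter on low counts. The table holds 721 cells of wild-type C57Bl/6Babr mouse embryos at embryonic day 3.5 (E3.5, 10 embryos), E4.5 (5 embryos), E5.5 (9 embryos) and E6.5 (13 embryos, 2 of them titled E6.75), with no treatment or engineered allele in any group. Cells titled E6.5 or E6.75 without a plate name repeat embryo numbers of the E6.5 plates and were taken as other embryos, which gives more embryos than the study counts. At E3.5 and E4.5 the trophectoderm was removed by immunosurgery, so the cells are taken as those of the inner cell mass (ICM) and its descendants. E5.5 embryos lost their extra-embryonic ectoderm and were parted into epiblast and visceral endoderm (VE), and E6.5 embryos of the early streak stage were freed of extra-embryonic tissue. Single cells were picked by hand and their polyadenylated RNA was amplified by Smart-seq2 within the G&T-seq protocol.

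In mammalian DNA, methyl groups sit mainly on cytosines of CG dinucleotides. Dnmt1 copies the pattern onto the new strand after replication and is brought to hemimethylated sites by Uhrf1, which binds them. Dnmt3a and Dnmt3b place new methyl groups, and Dnmt3l has no catalytic activity of its own but stimulates both of them. The Tet dioxygenases oxidise 5-methylcytosine, which starts its removal. The genome of the mouse embryo loses most of its methylation before the blastocyst stage and regains it around implantation, which is the interval covered by these stages.

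On GRCm38, the build of the counts, Dnmt1 lies at chr9:20907209-20959888 on the minus strand and Uhrf1 at chr17:56303321-56323486 on the plus strand. Dnmt3a lies at chr12:3806007-3914443, Dnmt3b at chr2:153649450-153687730 and Dnmt3l at chr10:78041947-78063622, all on the plus strand. Tet1 lies at chr10:62804570-62908996, Tet2 at chr3:133463679-133545139 and Tet3 at chr6:83362373-83459084, all on the minus strand. All 8 are protein-coding genes, and each value is a count per gene. Counting by strand is not given in the sources used here, so genes that overlap on opposite strands cannot be told apart where they overlap. This touches Dnmt3l most, because the coding gene Aire runs in the opposite direction across its start, with 1664 bases shared by the genes and 67 bases shared by their exons (chr10:78042061-78042127). Dnmt3a and Dnmt3b each overlap a non-coding antisense gene that has no row of its own, over 2952 and 837 bases, and Tet3 overlaps a non-coding transcript over 6568 bases.

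The sequence before a start site of the gene is shown for the members whose levels moved most across the stages, because CG dinucleotides are the substrate of the enzymes themselves. Each line gives the 250 bases before a start site, from RefSeq on GRCm38.p6, read 5′ to 3′ on the strand of the gene with each CG in capitals. CG reads the same on both strands, and the windows shown touch no exon of the GENCODE annotation. Those of Dnmt3a, Dnmt3l and Tet2 lie inside the gene ranges given above.
Dnmt3b (chr2:153649199-153649448, plus strand): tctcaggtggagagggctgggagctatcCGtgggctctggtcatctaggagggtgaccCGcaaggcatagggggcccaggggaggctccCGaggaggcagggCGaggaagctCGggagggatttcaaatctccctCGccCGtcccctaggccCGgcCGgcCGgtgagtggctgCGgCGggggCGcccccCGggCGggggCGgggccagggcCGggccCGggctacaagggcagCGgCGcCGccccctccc
Dnmt3a (chr12:3806730-3806979, plus strand): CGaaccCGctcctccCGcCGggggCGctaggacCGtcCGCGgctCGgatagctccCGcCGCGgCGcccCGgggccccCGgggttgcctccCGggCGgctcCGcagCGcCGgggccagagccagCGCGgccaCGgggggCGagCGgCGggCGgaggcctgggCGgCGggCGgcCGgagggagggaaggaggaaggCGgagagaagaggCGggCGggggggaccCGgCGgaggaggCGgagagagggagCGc
Dnmt3l (chr10:78049592-78049841, plus strand): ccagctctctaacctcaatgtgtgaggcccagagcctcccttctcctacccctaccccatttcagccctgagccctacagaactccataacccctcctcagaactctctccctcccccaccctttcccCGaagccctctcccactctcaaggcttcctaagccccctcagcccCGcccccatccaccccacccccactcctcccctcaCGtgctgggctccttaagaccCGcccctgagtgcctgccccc
Dnmt3l (chr10:78055085-78055334, plus strand): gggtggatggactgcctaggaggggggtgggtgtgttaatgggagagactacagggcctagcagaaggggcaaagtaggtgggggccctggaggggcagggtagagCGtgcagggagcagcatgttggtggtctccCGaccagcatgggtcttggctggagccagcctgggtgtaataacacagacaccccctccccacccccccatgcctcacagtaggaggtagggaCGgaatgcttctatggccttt
Tet2 (chr3:133544391-133544640, minus strand): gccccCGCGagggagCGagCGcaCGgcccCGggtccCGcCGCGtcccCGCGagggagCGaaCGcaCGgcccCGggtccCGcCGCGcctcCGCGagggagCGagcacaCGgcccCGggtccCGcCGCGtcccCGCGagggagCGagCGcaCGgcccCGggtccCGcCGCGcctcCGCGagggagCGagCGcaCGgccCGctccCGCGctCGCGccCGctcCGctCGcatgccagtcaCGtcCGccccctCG
The Dnmt3b window holds 21 CG and the Dnmt3a window shown 38, against a median of 6 over all 32851 promoter windows of this length, and 83.7% and 98.1% of all windows hold fewer. Other Dnmt3a windows, which touch an exon, hold 40 and 15 CG, and 98.7% and 72.7% of all windows hold fewer. The Tet2 window holds 51, and 99.9% of all windows hold fewer. The Dnmt3l windows shown hold 4 and 3 CG, and 37.8% and 29.03% of all windows hold fewer. Another Dnmt3l window, which touches an exon, holds 5. Windows of Uhrf1 hold 10 and 30 CG, and those of Tet1 and Tet3 hold 15 and 17. Of these, only the Uhrf1 window with 30 CG touches no exon. Methylation itself was not measured in these data.

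Total counts per cell ranged from 66896 to 3792936, with a median of 692863, and the 8 genes together took a median of 0.297% of the counts of a cell. Cells of all stages were clustered together, and E6.5 cells alone, without the 8 genes and their partners. The clusters were named within each stage by lineage markers, and E3.5 cells were kept as 1 class. The E4.5 cells fell into 23 epiblast-like and 82 primitive endoderm (PrE)-like cells, and all E5.5 cells but 8 endoderm-like ones were epiblast-like. At E6.5 the cells titled with plates P1 to P3 gave 99 epiblast-like and 29 endoderm-like cells, those without a plate name gave 80 epiblast-like, 12 endoderm-like and 25 streak-like cells, and 5 cells were left unnamed. Of the 4 epiblast-like sums without plate name, the 2 titled E6.75 hold 53 and 19 cells and the others 4 each. Summed over 18 endoderm markers, E4.5 PrE-like sums held a median of 18575 counts per 1e+06 (CPM, with library sizes scaled by TMM) and epiblast-like sums 731. Of 8 trophectoderm markers, 3 had a count in each of these classes, with medians of 14.9 and 6.70 CPM in all, and Cdx2 was at 0 in both. At E3.5 all 8 had a count, and the sums held 132.1 to 847.07 CPM in all, with a median of 259.9. Of 10 VE markers, such as the transport proteins Ttr and Apoa1, the E5.5 epiblast-like sums held 6.59 to 72.6 CPM in all, the E6.5 epiblast-like sums on plates 247.4 to 6428 and the E6.5 endoderm-like sums 7224 to 19439. Each class of an embryo with 3 or more cells was added up to 1 sum, and the embryo was the replicate. Stages share the plate names P1, P2 and P11.P6.P10. Under P1 and P2 cell numbers recur between stages, 9 to 30 for each pair of stages, and these were taken as different plates, whereas none recur under P11.P6.P10, which E3.5 and E5.5 share. That name joins several plate names, so cells under it need not share a plate. A difference between stages thus cannot be told apart from one between plates.

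Across the 7 classes with enough embryos, Dnmt3a, Dnmt3b and Dnmt3l were low in the ICM and many times higher a day later in both lineages, whereas Tet2 was highest in the ICM and almost undetected in the epiblast from E5.5. Dnmt3b stayed high in the epiblast through E6.5, Dnmt3a peaked at E5.5 and Dnmt3l at E4.5. Uhrf1, Dnmt1 and Tet3 passed no comparison in the fit of all 45 sums, and Tet3 was the lowest of the Tet genes at E3.5 and E4.5. A gene is said below to have passed a comparison when edgeR's adjusted p was at most 0.05 and the log2 fold change was over 1 in size, or over 2 between the E4.5 lineages.

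**Figure D1:**
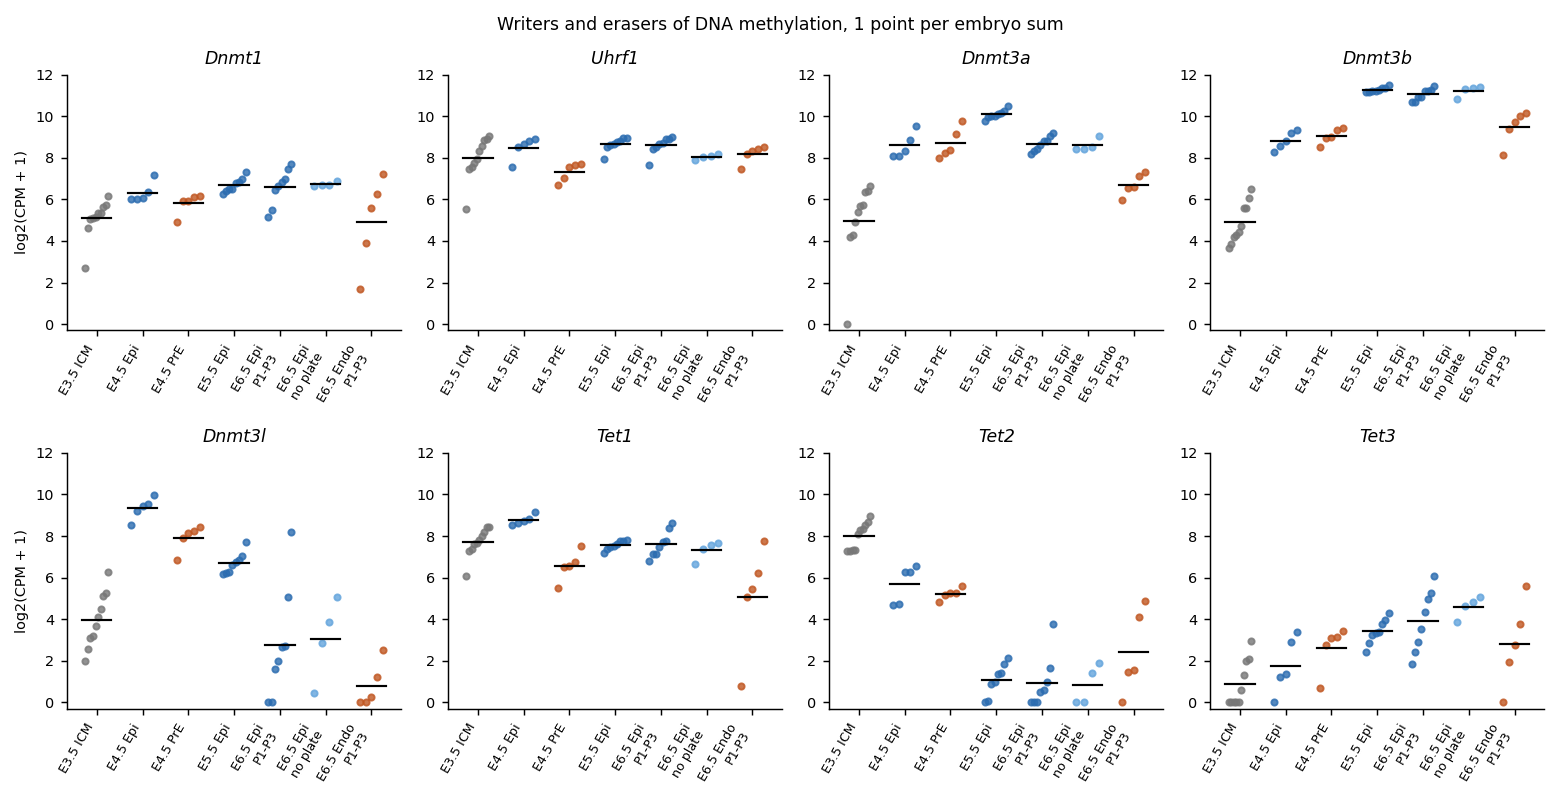
Level of each of the 8 genes in log2(CPM + 1) on the y axis, with 1 point per embryo sum and a bar at the mean of the points, for 7 classes of cells on the x axis. Dnmt3b lay between 2259.9 and 2886 CPM in all 8 E5.5 epiblast-like sums, above all E3.5 sums, and Tet2 shows the opposite order.

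Because the protocol covers whole transcripts, levels of different genes were compared only as CPM per kilobase of annotated exon. At E3.5 Uhrf1 led with a mean of 71.4 CPM per kb, followed by Tet2 with 16.7 and Tet1 with 14.6, and Dnmt3b stood at 7.02. In E4.5 epiblast-like sums Dnmt3l led with 225.9 CPM per kb, ahead of Dnmt3b with 91.9 and Uhrf1 with 87.6. In E5.5 epiblast-like sums Dnmt3b led with 488 CPM per kb, and Uhrf1 followed with 95.2, Dnmt3a with 66.3 and Dnmt3l with 36.7. The Tet genes came below these at E5.5, with 12.3 for Tet1, 0.630 for Tet3 and 0.0829 for Tet2. The exon length is the union of all annotated transcripts, which can be longer than any 1 transcript and so lower these values. It is 16.9 kb for Tet2, 16.7 for Tet3, 16.6 for Dnmt3a and 15.5 for Tet1, against 2.99 to 7.38 for the others. How far it lowers the value of each gene was not tested.

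Dnmt1, the maintenance methyltransferase, had 5.59 to 71.7 CPM in the E3.5 sums with a median of 36.97. The E4.5 epiblast-like sums held 63.4, 64.1, 65.7, 80.8 and 143.6 CPM, and the PrE-like sums 29.1, 60.3, 60.4, 67.6 and 71.4. Its means were 38.1 ± 17.5 (SD, n = 10) at E3.5, 83.5 ± 34.3 (SD, n = 5) in the E4.5 epiblast and 57.8 ± 16.7 (SD, n = 5) in PrE. The E4.5 epiblast against E3.5 missed the limit on p, with a log2 fold change of 1.14 (SE 0.46, adjusted p = 0.0639). It passed with only the wells labelled as single cells (1.55, adjusted p = 0.0407). Sums of at least 6 cells gave 1.94, but leave only embryo 4 in this class, the one with 143.6 CPM. From E5.5 the epiblast means stood at 105.8 ± 26.8 (SD, n = 8), 110.5 ± 59.6 (SD, n = 8) on E6.5 plates and 105.7 ± 8.55 (SD, n = 4) without plate name, and the log2 fold changes between these classes were 0.06 and 0.00 with SEs of 0.43 and 0.53. In the E6.5 endoderm-like sums Dnmt1 stood at 2.19, 14.03, 46.5, 76.01 and 149.2 CPM. All neighbours in the order of its 7 class means overlapped, and it passed none of the 9 comparisons in that fit.

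Uhrf1, the reader of hemimethylated DNA that recruits Dnmt1, was high at every stage. It ranged from 45.5 to 530.2 CPM at E3.5, where the 5 embryos of plate P8 had 45.5 to 324 CPM and the 4 of P9 had 373 to 530.2, and the cause of that gap was not tested. E4.5 epiblast-like sums held 187.6, 361, 398, 441 and 479 CPM, and the PrE-like sums of the same 5 embryos 101.9 to 208.8 CPM with a median of 187.06. PrE was lower in 5 of 5 embryos, with a log2 fold change of −1.17 (SE 0.35, adjusted p = 0.0312), which is within the limit of 2 that applies there, so it did not pass. Against E3.5 PrE had a log2 fold change of −0.87 (adjusted p = 0.0360), again under the limit in size. It passed with sums of at least 6 cells (−1.26, adjusted p = 0.000549), which leave out all E3.5 embryos of P8, the plate with the lower values. The epiblast-like means were 373 ± 112.8 (SD, n = 5) at E4.5, 405 ± 80.2 (SD, n = 8) at E5.5, 399.6 ± 99.9 (SD, n = 8) on E6.5 plates and 264.5 ± 23.5 (SD, n = 4) without plate name, and no step between them passed. Only the lowest pair in the order of its class means, the E6.5 epiblast without plate name and E4.5 PrE, did not overlap.

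Dnmt3a, a de novo methyltransferase, ranged from 0 to 98.2 CPM over the 10 E3.5 embryos with a median of 45.2. The E4.5 epiblast-like sums held 271, 274, 324, 467 and 745 CPM, and the PrE-like sums 256.9, 295, 327, 554 and 856. Both lineages lay wholly above the ICM and overlapped each other. The log2 fold changes over E3.5 were 3.15 (SE 0.42, adjusted p = 1.84e-07) in the epiblast and 3.29 (SE 0.42, adjusted p = 6.33e-08) in PrE, and between the lineages 0.14 (SE 0.50, adjusted p = 0.943).

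Dnmt3b, the other de novo enzyme, had 11.5 to 90.4 CPM at E3.5 with a median of 23.05. It stood at 312, 375, 447, 573 and 639 CPM in the E4.5 epiblast-like sums and at 370, 500.1, 513, 635 and 683 in PrE. Both groups lay wholly above the ICM, with log2 fold changes of 3.72 (SE 0.30, adjusted p = 3.02e-13) and 3.93 (SE 0.30, adjusted p = 8.08e-14). Dnmt3l, their cofactor, had 2.95 to 75.98 CPM at E3.5, then 367, 586, 689, 732 and 1002 in the E4.5 epiblast and 113.1, 237.5, 285, 302 and 349.5 in PrE. Its log2 fold changes over E3.5 were 4.92 (SE 0.93, adjusted p = 8.62e-05) and 3.53 (SE 0.89, adjusted p = 0.00307). PrE lay wholly below the epiblast and was lower in 5 of 5 embryos, but the log2 fold change of −1.39 (SE 1.06, adjusted p = 0.504) did not pass. Sums of at least 6 cells leave out all P8 embryos at E3.5 and all E4.5 epiblast-like sums but that of embryo 4. Dnmt3l then had a log2 fold change of 3.42 in the epiblast, and did not pass in PrE (2.95, adjusted p = 0.0532).

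In the epiblast at E4.5 the 3 members Dnmt3a, Dnmt3b and Dnmt3l thus passed upward over E3.5, against a background of 12.9% of the 13906 genes tested, and none passed downward, against 8.8%. In PrE the same 3 genes passed upward against a background of 12.9%, and Tet2 passed downward against 6.11%. At E3.5 the level of Dnmt3l also differed between plates, with 2.95 to 16.2 CPM on P8 and 21.6 to 75.98 on P9, and every E4.5 sum lay above both ranges.

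**Figure D2:**
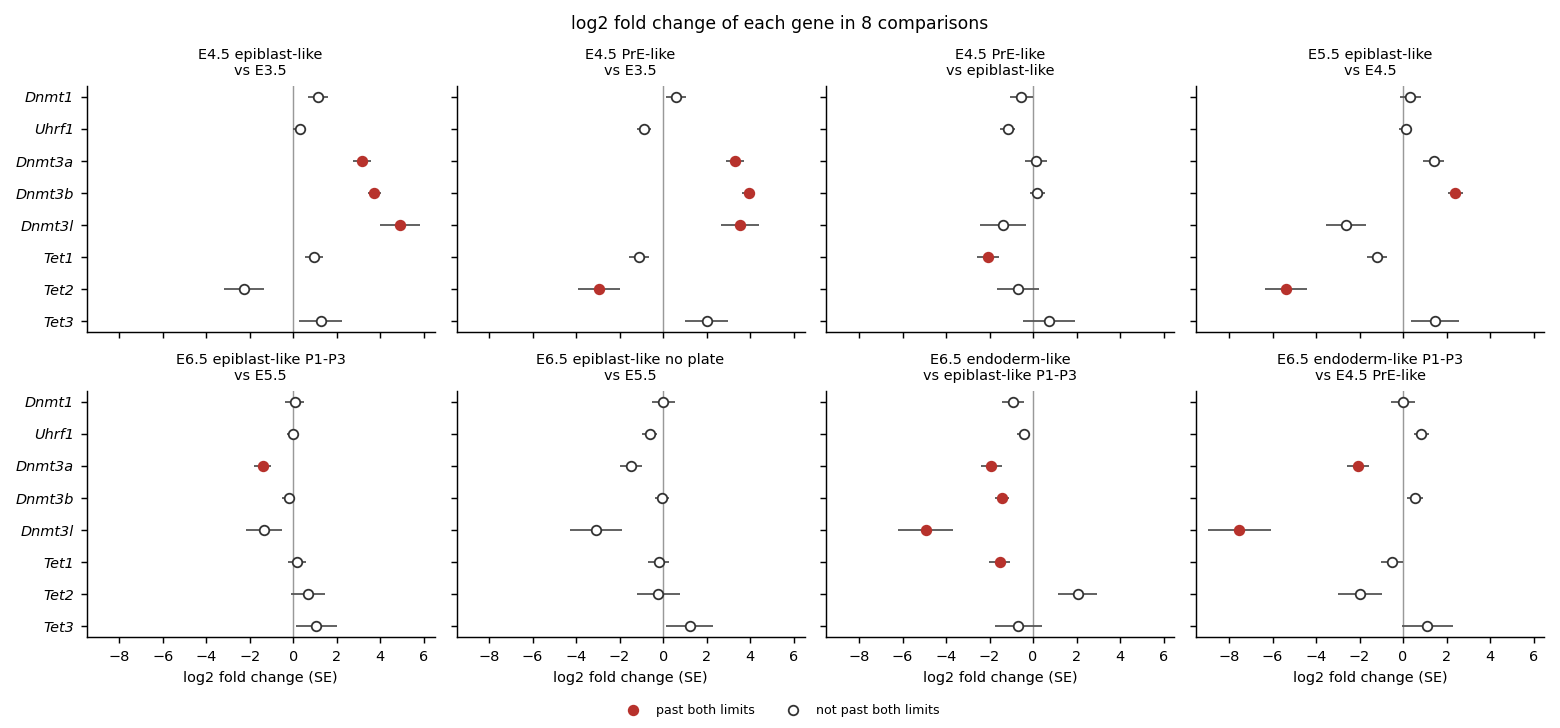
Log2 fold change on the x axis with its SE as a bar, for the 8 genes on the y axis in 8 comparisons between classes. Filled points passed both limits, and Dnmt3a, Dnmt3b and Dnmt3l are filled on the right in both comparisons of E4.5 with E3.5, at log2 fold changes of 3.15 to 4.92.

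Between E4.5 and E5.5 the epiblast changed in the balance of the de novo genes. Dnmt3b ranged from 2259.9 to 2886 CPM over 8 embryos at E5.5, with a median of 2414, wholly above the E4.5 values, and passed with a log2 fold change of 2.41 (SE 0.35, adjusted p = 6.85e-06). Dnmt3a ranged from 872 to 1438 CPM with a median of 1068, also wholly above E4.5, but its log2 fold change of 1.41 (SE 0.47, adjusted p = 0.0602) did not pass. It passed without E4.5 embryo 1, which has the highest E4.5 value, with a log2 fold change of 1.73 (adjusted p = 0.0411), in DESeq2 (1.32, adjusted p = 0.0432) and with Ward clustering (1.43, adjusted p = 0.0463). Ward clustering put 46 E4.5 cells in the epiblast-like class, against 23 in the main one. Their endoderm markers had a mean log2 level of 4.555, against 2.265 and 1.704 in the main epiblast-like clusters. Dnmt3l went the other way, with 70.97 to 207.9 CPM and a median of 101.8, wholly below E4.5, and its log2 fold change of −2.62 (SE 0.94, adjusted p = 0.0791) did not pass. In this comparison Dnmt3b passed upward against a background of 3.28% and Tet2 passed downward against 2.95%.

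At E6.5 Dnmt3a was lower in the epiblast than at E5.5, and Dnmt3b did not pass. On plates P1 to P3 Dnmt3a ranged from 289 to 582 CPM over 8 embryos, with a median of 416, wholly below E5.5, and passed with a log2 fold change of −1.41 (SE 0.40, adjusted p = 0.0130), but not when tested against a log2 limit of 1 (adjusted p = 0.332). The embryos without plate name held 336, 345, 369 and 529 CPM, also wholly below E5.5, with a log2 fold change of −1.48 (SE 0.52) that did not pass (adjusted p = 0.176). Sums of at least 6 cells gave a pass (−1.68, adjusted p = 0.0317), but keep only the embryos titled E6.75 and drop that with 529 CPM. Dnmt3b had 1615 to 2758 CPM on plates, with a median of 2175, and 1787, 2525, 2577 and 2709 without plate name. Its log2 fold changes from E5.5 were −0.22 (SE 0.28, adjusted p = 0.674) and −0.05 (SE 0.34, adjusted p = 1). On plates 1 member passed downward against a background of 6.79% and none upward against 5.59%. Without plate name no member passed in edgeR, against 0.805% upward and 0.654% downward, and Dnmt3a and Dnmt3l were the members with an unadjusted p under 0.05 there (0.00609 and 0.0136). DESeq2 also called none.

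VE markers were higher in the E6.5 than in the E5.5 epiblast-like sums, from a median of 16.5 CPM at E5.5 to 1018 on E6.5 plates and 1188 without plate name, and their part in the lower Dnmt3a was not tested. Between the E6.5 epiblast classes no member passed in edgeR or DESeq2, against a background of 0.568% upward and 0.805% downward, and the smallest unadjusted p was that of Uhrf1, at 0.0859. In bulk sums of a class, fewer cells that express a gene and less RNA per cell cannot be told apart, and the shares of cells given further on bear on that.

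Dnmt3l at E6.5 rested on 1 embryo. Over the 8 epiblast-like sums on plates it had a lowest value of 0, a median of 4.18 and a highest value of 297 CPM, and the highest came from embryo 9 of plate P3. In that embryo 1495 of 1498 Dnmt3l counts came from 1 of its 7 cells, which had the highest total of the 99 cells of the class, 3451994, and 4039 genes detected against a class median of 5871, ranking 98. With this embryo the mean was 43.2 ± 103.02 (SD, n = 8), and the log2 fold change from E5.5 was −1.34 (SE 0.84, adjusted p = 0.309). Without it the mean was 6.94 ± 11.5 (SD, n = 7), all values lay below E5.5, and the gene passed with a log2 fold change of −3.97 (adjusted p = 0.000525). The embryos without plate name held 0.375, 6.36, 13.5 and 32.3 CPM, wholly below E5.5, with a log2 fold change of −3.08 (SE 1.2, adjusted p = 0.275).

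The overlap with Aire bears on Dnmt3l in the epiblast. Aire had 127.8 to 355 CPM in the E4.5 epiblast-like sums and 57.1 to 164.9 at E5.5, where Dnmt3l was high or intermediate, and 1.09 to 55.9 in PrE, while it was at or near 0 at E3.5 and E6.5. In 51 E5.5 epiblast-like cells without an Aire count, 45 had a Dnmt3l count, and the pool held 74.4 CPM of Dnmt3l. The pool of the cells with an Aire count held 103.3 CPM. Of the PrE-like cells, 66 had no Aire count and held 185.6 CPM of Dnmt3l as a pool, against 393 CPM in the 16 with an Aire count. Dnmt3l was thus counted in cells without Aire, and the share of its counts that lies on bases common to both genes was not tested.

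**Figure D3:**
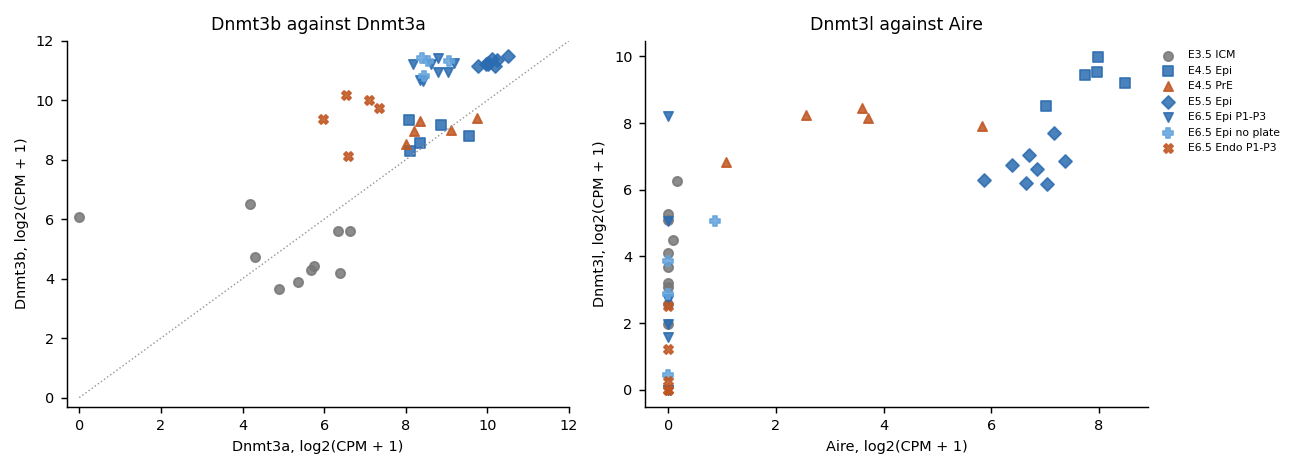
Left, Dnmt3b against Dnmt3a and, right, Dnmt3l against Aire, all in log2(CPM + 1), with 1 point per embryo sum and a symbol per class. The dotted line marks equal levels, and all E6.5 sums lie further above it than the E5.5 epiblast-like sums, while the sum furthest above it, at a log2 ratio of 6.07, is an E3.5 sum with no Dnmt3a count, and on the right Dnmt3l was above 100 CPM in PrE-like sums with as little as 1.09 CPM of Aire.

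Dnmt3a and Dnmt3b overlapped between the lineages at E4.5, and at E6.5 both were lower in the endoderm. In the 5 E6.5 endoderm-like sums on plates, Dnmt3a had 61.4, 92.5, 95.2, 136.7 and 160.2 CPM, wholly below the epiblast-like sums of the same plates, with a log2 fold change of −1.93 (SE 0.49, adjusted p = 0.00819). Dnmt3b had 281, 658, 854, 1031 and 1144 CPM, also wholly below, with −1.43 (SE 0.33, adjusted p = 0.00442). Both were lower in 5 of 5 embryos that gave sums of both classes, and both still passed with the embryo as a block. Tested against a log2 limit of 1 neither passed (adjusted p = 0.0831 for Dnmt3a and 0.172 for Dnmt3b). Sums of at least 6 cells leave only embryo 8 of P3 in the endoderm-like class, and gave −0.91 for Dnmt3b. At E4.5 the same contrast had given 0.14 for Dnmt3a and 0.20 for Dnmt3b. The lineage difference of Dnmt3b changed between the stages by −1.64 (SE 0.48, adjusted p = 0.0365), against a background of 4.94% of genes with an adjusted p of at most 0.05. For Dnmt3a the change was −2.07 (SE 0.68, adjusted p = 0.0644), which missed it.

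Dnmt3l and Tet1 passed this E6.5 comparison as well. Dnmt3l had 0, 0, 0.192, 1.34 and 4.72 CPM in the endoderm-like sums, with a log2 fold change of −4.95 (SE 1.26, adjusted p = 0.00892) that became −2.34 (adjusted p = 0.0898) without epiblast embryo 9. It was the 1 member that passed against a log2 limit of 1, but not with Ward clustering (−3.11, adjusted p = 0.0772). Sums of at least 6 cells, with only embryo 8 of P3 in the endoderm, gave −8.10. Tet1 had 0.731, 32.2, 43.3, 74.2 and 216.4 CPM, overlapping the epiblast, with −1.54 (SE 0.48, adjusted p = 0.0310). With the embryo as a block neither passed (adjusted p = 0.565 for Dnmt3l and 0.267 for Tet1), nor in the same embryos without a block (0.503 and 0.401). Tet1 also lost its pass against a log2 limit of 1 (adjusted p = 0.215), with only the wells labelled as single cells (−1.45, adjusted p = 0.0529), and without endoderm embryo 2 of P1 (−1.29, adjusted p = 0.105), embryo 5 of P2 (−1.36, adjusted p = 0.0875) or embryo 8 of P3 (−1.44, adjusted p = 0.0695). Dnmt1 gained one without embryo 6 of P2 (−1.69, adjusted p = 0.0475), and Tet2 without embryo 8 of P3 (4.05, adjusted p = 0.00423). With sums of at least 6 cells Dnmt1 had −2.92, from embryo 8 of P3 alone in the endoderm. In all 4 members passed downward against a background of 7.1% and none upward against 4.11%. The endoderm-like sums held a median of 782 CPM over 10 epiblast markers against 1384 in the epiblast-like sums, and the part of such mixing in these values was not tested.

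Along the endoderm, from E4.5 PrE to the E6.5 endoderm-like sums, Dnmt3a and Dnmt3l fell, and Dnmt3b did not pass. Both that fell lay wholly below PrE, with log2 fold changes of −2.07 (SE 0.52, adjusted p = 0.00507) for Dnmt3a and −7.52 (SE 1.43, adjusted p = 0.000298) for Dnmt3l, whose 41 counts in all came from 3 of 5 embryos. Against a log2 limit of 1 Dnmt3a did not pass (adjusted p = 0.0540). Sums of at least 6 cells leave only embryo 8 of P3 in the E6.5 endoderm, and gave −10.4 for Dnmt3l. Dnmt3b had a mean of 794 ± 341 (SD, n = 5) against 540.5 ± 123.4 (SD, n = 5), a log2 fold change of 0.55 (SE 0.35, adjusted p = 0.292). With sums of at least 6 cells, and so embryo 8 of P3 alone in the E6.5 endoderm, it was 1.04. Here 2 members passed downward against 9.65% and none upward against 5.45%. Without endoderm embryo 6 of P2, Tet1 passed too, with −1.52 (adjusted p = 0.0342).

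Tet1, the most abundant Tet enzyme from E4.5 on, peaked in the E4.5 epiblast. It ranged from 67.2 to 348 CPM at E3.5 with a median of 213.6, and stood at 368, 389, 421, 449 and 562 CPM in the E4.5 epiblast-like sums, wholly above. That log2 fold change of 0.96 (SE 0.42, adjusted p = 0.0957) did not pass. The PrE-like sums of the same embryos held 44.4, 89.9, 94.9, 106.4 and 184.98 CPM, wholly below the epiblast and lower in 5 of 5 embryos. PrE against E3.5 did not pass, but did with Ward clustering (−1.25, adjusted p = 0.0313) and with sums of at least 6 cells (−1.11, adjusted p = 0.0129). Such sums leave out all E3.5 embryos of P8. Tet1 passed this lineage comparison with −2.07 (SE 0.52, adjusted p = 0.00989), just past the limit of 2. It was the 1 member that passed downward, against a background of 1.86%, and none passed upward, against 3.56%. The pass was lost without embryo 2 (−1.88, adjusted p = 0.0556) or embryo 4 (−1.89, adjusted p = 0.0605) and against a log2 limit of 1 (adjusted p = 0.0960), and kept with the embryo as a block. It was also lost with Ward clustering (−1.60, adjusted p = 0.0547), whose epiblast-like class of 46 cells held more of the endoderm markers. At E5.5 Tet1 was lower again, at 143.9 to 225.4 CPM with a median of 188.3, wholly below the E4.5 epiblast, but −1.201 (SE 0.45, adjusted p = 0.0935) did not pass. The E6.5 epiblast had 109.02 to 392 CPM on plates and 99.6, 163.1, 191.9 and 203.97 without plate name, both overlapping E5.5.

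Tet2, another 5-methylcytosine dioxygenase, showed the largest drop among the 8 genes in the epiblast. It had 154.9 to 492 CPM over the 10 E3.5 embryos with a median of 292. In the E4.5 epiblast-like sums it had 25.1, 25.5, 75.3, 75.7 and 93.7 CPM, and in PrE 27.4, 34.5, 36.996, 37.1 and 47.7, all below every E3.5 sum. The log2 fold change from E3.5 was −2.94 (SE 0.97, adjusted p = 0.0240) in PrE, which passed, and −2.25 (SE 0.93, adjusted p = 0.0721) in the epiblast, which did not. The PrE pass was lost without embryo 1, 2, 4 or 5 in turn, with log2 fold changes of −2.86, −2.88, −2.81 and −2.88 and adjusted p of 0.0572, 0.0563, 0.0654 and 0.0587, against a log2 limit of 1 (adjusted p = 0.0681) and with only the wells labelled as single cells (−2.74, adjusted p = 0.0776), and DESeq2 called the epiblast drop (−2.27, adjusted p = 0.0428). The 8 E5.5 epiblast-like sums held 0 to 3.36 CPM with a median of 1.31, so that Tet2 fell by 5.38 on the log2 scale (SE 0.95, adjusted p = 0.000166). It stayed there at E6.5, with medians of 0.476 CPM on plates and 0.844 without plate name. The E6.5 endoderm-like sums held 0, 1.73, 1.99, 16.5 and 28.2 CPM.

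Tet3, the third member of the family, was low throughout, and its mean was 1.52 ± 2.26 CPM (SD, n = 10) in the ICM and 24.5 ± 8.02 (SD, n = 4) in the E6.5 epiblast without plate name, but no comparison of it passed. It had no count in 5 of 10 E3.5 embryos, and at E5.5 it ranged from 4.41 to 18.9 CPM with a median of 9.33. On E6.5 plates it ranged from 2.55 to 65.8 CPM. All neighbours in the order of its class means overlapped, and its smallest unadjusted p was 0.0464, in PrE against E3.5 (log2 fold change 1.998, SE 0.98, adjusted p = 0.148).

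In single cells thinned to 300000 counts, with 46 shallower cells left out, the share of cells with a count went with the level for some genes only. Dnmt3a and Dnmt3b were found in 100% of cells in the epiblast-like classes of E4.5, E5.5 and E6.5, although both levels were higher at E5.5 than at E4.5. The lower Dnmt3a at E6.5 thus came with no lower share. Tet1 was found in 100% of E4.5 and 97.1% of E5.5 epiblast-like cells, with a lower level at E5.5. Tet2 was found in 97.9% of E3.5 cells as a mean over embryos, in 79.7% and 74.8% of E4.5 epiblast-like and PrE-like cells and in 5.31% of E5.5 epiblast-like cells. In the E6.5 endoderm-like cells on plates it was found in 49.9%, with embryos from 0% to 100%. Dnmt3l was found in 37.8% of E3.5 cells, 100% and 96.8% of cells of the E4.5 lineages, 89.4% at E5.5 and 15.1% in the E6.5 epiblast on plates. Without plate name the share was 50.1%, but from 0% to 100% between the 4 embryos. Dnmt3a, Dnmt3b and Dnmt3l were found together in 18.8% of E3.5 cells and in 100% of E4.5 epiblast-like cells. Tet1 and Tet2 were found together in 83.6% of E3.5 cells and in 5.31% at E5.5, and Tet3 was found in 7.04% at E3.5 and 36.6% at E5.5. Cells are not replicates, and no test was made of these shares.

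**Figure D4:**
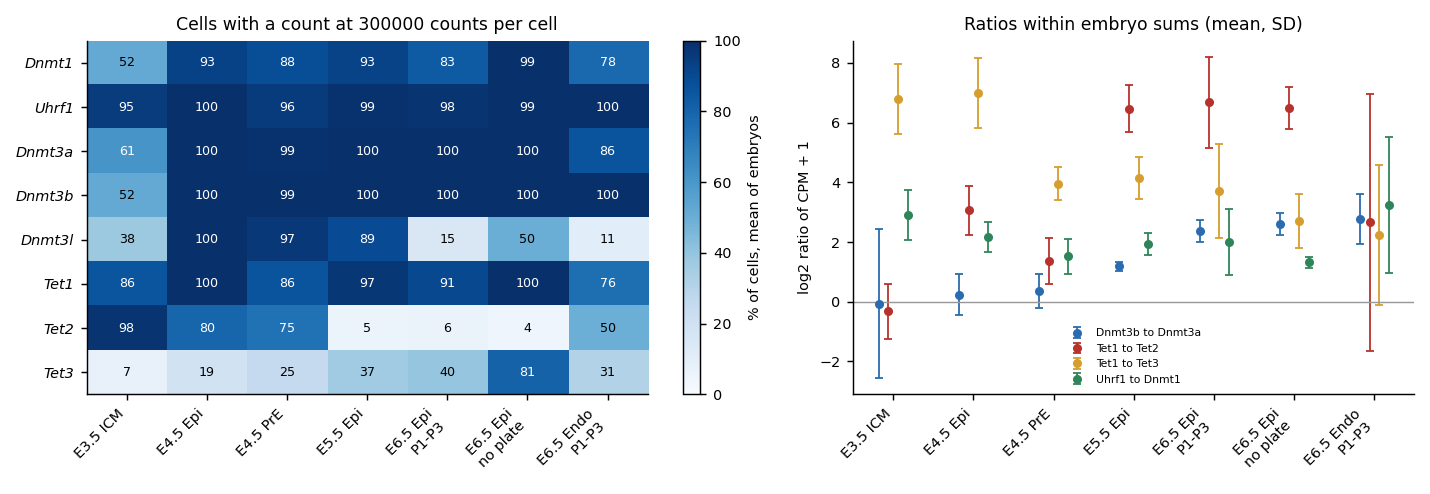
Left, percent of cells with a count of each gene at 300000 counts per cell, as the mean of embryos, for 8 genes and 7 classes. Right, the log2 ratio of CPM + 1 within embryo sums, as mean with SD, for 4 pairs of genes; Dnmt3b to Dnmt3a goes from −0.06 at E3.5 to 2.37 and 2.61 in the E6.5 epiblast.

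The balance within a family was taken from the ratio of CPM + 1 inside each sum. The log2 ratio of Dnmt3b to Dnmt3a was −0.06 ± 2.50 (SD, n = 10) at E3.5, where both are low, 0.24 ± 0.70 (SD, n = 5) in the E4.5 epiblast, 1.18 ± 0.14 (SD, n = 8) at E5.5 and 2.37 ± 0.37 (SD, n = 8) on E6.5 plates. The 8 E5.5 values, 0.97 to 1.39, lay below the 8 on E6.5 plates, 1.91 to 3.05. The log2 ratio of Tet1 to Tet2 went from −0.32 ± 0.92 (SD, n = 10) at E3.5 to 3.06 ± 0.83 (SD, n = 5) in the E4.5 epiblast and 6.47 ± 0.80 (SD, n = 8) at E5.5. In E4.5 PrE it was 1.36 ± 0.78 (SD, n = 5).

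The plate name P11.P6.P10 gives the E3.5 to E5.5 change within a name, though not within a known single plate. The E3.5 embryo there, 9 cells whose titles give no embryo number and which were taken as 1 embryo, had 50.04 CPM of Dnmt3a, against 872 and 1029.65 in the E5.5 embryos 7 and 8. For Dnmt3b it had 18.4 against 2291 and 2452, and for Tet2 154.9 against 1.62 and 1.71. Uhrf1 had 248.4 against 241.4 and 359.99, which overlaps. The name P1 was taken as different plates between stages. Under it, Dnmt3b stood at 375 and 447 CPM in the E4.5 epiblast, 2643 at E5.5 and 1615 and 1622 at E6.5. Dnmt3a had 324 and 745 CPM there at E4.5, 1196 at E5.5 and 325 and 339.8 at E6.5.

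The classes that 1 or 2 embryos hold were set beside the epiblast-like sum of the same embryo, with no test. The E6.5 streak-like sum, of 24 cells of 1 embryo with 111.99 CPM of T, a streak transcription factor, had 262.7 CPM of Dnmt3a against 529 and 1819 of Dnmt3b against 2525. Dnmt3l had 1.05 against 32.3 and Tet1 105.5 against 163.1, whereas Dnmt1 and Uhrf1 were at 113.9 and 329.9 against 99.5 and 291. The E5.5 endoderm-like sum of 5 cells had 133.6 CPM of Dnmt3a against 872, 621 of Dnmt3b against 2291 and 19.7 of Tet1 against 143.9. In it Dnmt3l had no count among 6668780 against 73.3 CPM, and Tet2 stood higher, at 14.4 against 1.62. The 2 embryos with E6.5 endoderm-like cells without plate name had 44.1 and 80.02 CPM of Dnmt3a, and both were lower than the epiblast of the same embryo for Dnmt3a and Dnmt3b.

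Partners of the 8 genes were taken from lists made with earlier results of these data known, and are described by counts. The shares of all tested genes that passed upward and downward were 12.9% and 8.8% in the E4.5 epiblast against E3.5, 12.9% and 6.11% in PrE, 3.28% and 2.95% at E5.5, and 5.59% and 6.79% on E6.5 plates. They were 4.11% and 7.1% between the E6.5 lineages and 5.45% and 9.65% along the endoderm. List counts near these shares say nothing of a list. Of 11 maintenance partners, 1 passed upward and 1 downward in the E4.5 epiblast against E3.5, with a median log2 fold change of 0.93 against 0.00 over all genes. The chromatin remodeller Hells rose by 1.99 on the log2 scale (adjusted p = 1.35e-07) and Dppa3, a maternal protein that keeps Uhrf1 from chromatin, fell by 4.24 (adjusted p = 0.000271), from 4994 ± 910 (SD, n = 10) to 263.4 ± 147.3 CPM (SD, n = 5). In PrE Dppa3 fell by 6.31 and the corepressor Trim28 by 1.05, while the PCNA-associated factor 2810417H13Rik rose by 2.97. At E5.5 2810417H13Rik rose by 6.43 (adjusted p = 3.1e-05), from 3.04 to 262.2 CPM, Zfp57, which protects imprints, fell by 3.98 (adjusted p = 0.000876) and Dppa3 fell by 2.19. On E6.5 plates Dppa3 fell by 3.56 and Uhrf2, a paralog of Uhrf1, rose by 2.12 (adjusted p = 0.0106), from 20.8 to 90.3 CPM. Cdca7, which recruits Hells, was the 1 maintenance partner that passed between the E6.5 lineages, lower in endoderm by a log2 fold change of −1.46 (adjusted p = 0.0429).

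Of 19 genes that target de novo methylation or shape chromatin around it, 3 passed upward and 1 downward in the E4.5 epiblast, with a median of 0.67 against 0.00 over all genes. Kdm2b, which binds unmethylated CG, and the H3K9 methyltransferase gene Ehmt2 had log2 fold changes of 2.64 and 2.58. Prdm14, which represses Dnmt3b, had 38.1 ± 31.2 CPM (SD, n = 10) at E3.5 and 0.543 ± 1.22 (SD, n = 5) in the E4.5 epiblast, and passed downward in both lineages. Morc1, a germline silencing factor, fell by 5.03 between the E4.5 and E5.5 epiblast (adjusted p = 0.000879), from 457 to 13.98 CPM. On E6.5 plates Cbx3, a heterochromatin protein, rose by 2.89 (adjusted p = 4.39e-08), from 88.1 to 652 CPM, but it stood at 78.97 CPM without plate name and differed between the E6.5 epiblast classes by −3.04 (adjusted p = 4.89e-05). Idh1, an enzyme that makes the 2-oxoglutarate the Tet enzymes use, fell in the epiblast by 1.49 at E4.5 and by 1.59 at E5.5, and rose by 2.17 on E6.5 plates, again with a difference between the E6.5 classes of −1.94 (adjusted p = 0.0092).

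Of 19 genes for removal of oxidised bases and Tet partners, 3 passed in the E4.5 epiblast against E3.5, with 1 higher and 2 lower, and 2 on E6.5 plates against E5.5, with 1 each way. The higher one at E4.5, Neil2, had 0.617 ± 1.38 CPM (SD, n = 5) against 0. Between the E6.5 lineages 1 passed downward, Cxxc4, with no count in the endoderm-like sums and 2.82 ± 4.28 CPM (SD, n = 8) in the epiblast. Of 6 methyl-CpG readers tested, Mbd3 fell by 1.35 on E6.5 plates (adjusted p = 0.000521) and Zbtb38 passed upward in the E4.5 epiblast and along the endoderm. Of 8 genes of methyl donor synthesis tested, Mat2b, a regulatory subunit of the enzyme that makes S-adenosylmethionine, rose by 1.53 in the E4.5 epiblast (adjusted p = 0.0266). Of 18 replication genes, 2 passed upward and 1 downward in that comparison, Ccne2 by 2.88, Mcm3 by 1.22 and Rrm2 by −1.50. On E6.5 plates 2 passed downward, with Mcm5 falling by 1.11 and Cdt1 by 1.60.

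The last list holds 20 germline genes known to be silenced by promoter methylation. In the E4.5 epiblast 6 passed upward and 1 downward, beside 12.9% and 8.8% of all genes, with a median log2 fold change of 0.72 against 0.00 over all genes, and in PrE 4 and 1, beside 12.9% and 6.11%. Several were near 0 in both classes. In the E4.5 epiblast Tdrd1 and Tex101 had 1.26 ± 2.81 and 1.76 ± 3.25 CPM (SD, n = 5) against 0 at E3.5. Slc25a31 had 4.41 against 0.203, and Tdrkh, which passed downward, 0 against 1.96. Hormad1, Syce1 and Rpl10l stood higher, at 63.8, 15.1 and 436.3 CPM. Between the E4.5 and E5.5 epiblast none passed upward and only Asz1 passed downward, beside 3.28% and 2.95%, with a median of 0.81 against 0.18. On E6.5 plates 5 passed downward and none upward from E5.5, beside 6.79% and 5.59%, with a median of −2.21 against −0.02, and without plate name 2 passed downward, beside 0.654%, with a median of −3.17. Between the E6.5 lineages 2 passed upward and 1 downward, beside 4.11% and 7.1%. All were low, with Mael at 1.83 CPM in endoderm against 0, Stag3 at 5.19 against 0.368 and Syce1 at 0 against 3.70. From PrE to the E6.5 endoderm 5 passed downward and none upward, beside 9.65% and 5.45%, with a median of −2.89 against −0.18. Hormad1, a meiotic chromosome axis protein, had 1.98 ± 4.29 CPM (SD, n = 10) at E3.5, 63.8 ± 29.6 (SD, n = 5) in the E4.5 epiblast, 155.6 ± 108.4 (SD, n = 8) at E5.5 and 4.60 ± 5.39 (SD, n = 8) on E6.5 plates. Stag3, a meiotic cohesin subunit, had 22.8 CPM at E5.5 and 0.368 on E6.5 plates, and Tex19.1, a germ cell gene that is also active in early embryos, was at 80.8 CPM at E5.5 and 7.64 without plate name.

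Over the 45 sums, the 8 genes followed each other unevenly, and these correlations are descriptions across sums that share stages and plates. Spearman's rho was 0.77 between Dnmt3a and Dnmt3b, −0.84 between Dnmt3b and Tet2, −0.08 between Dnmt3b and Dnmt3l and 0.29 between Dnmt1 and Uhrf1. The tested genes most like each member in pattern were Rab34 (rho 0.90) and Tead2 (0.89) for Dnmt3b, Rplp0 (0.90) and Aldoa (0.89) for Dnmt3a, Cox6c (0.87) and Cox8a (0.85) for Dnmt3l and Calcoco2 (0.88) and Fbxo15 (0.88) for Tet2. For the others the closest were Vrtn (0.74) and Ccne1 (0.73) for Dnmt1, Kars (0.67) and Gltscr2 (0.63) for Uhrf1, Cth (0.67) for Tet1 and Morn4 (0.79) and Hunk (0.74) for Tet3. Within single embryos at E5.5, the correlation across cells with the mean level of 18 replication genes had a median rho over 8 embryos of 0.31 for Uhrf1 (0.19 to 0.65), 0.35 for Dnmt3b (0.16 to 0.61) and 0.15 for Dnmt1 (−0.11 to 0.38). Cells of an embryo share a plate name, which can join several plates, and differ in depth, and no p is given.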

How the data were processed

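Polyadenylated RNA of 721 picked cells was sequenced as 100-base paired reads. The authors trimmed reads with Trim Galore 0.4.3, mapped them with HISAT2 2.0.5 to GRCm38 (versions from the submitters' processing notes), kept mapping quality of at least 20, counted reads per gene in SeqMonk without normalization, and left out cells with under 4000 genes or over 10% mitochondrial reads. The deposited values are raw counts of 24483 gene rows on chromosomes 1 to 19. E3.5 contributed 99 cells, E4.5 105, E5.5 267 and E6.5 250, and 128 of the wells were seen to hold 2 cells. E6.5 cells titled with and without a plate name were taken as different embryos, and E6.75 titles were counted as E6.5.

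Cells were classed by consensus clustering in the manner of SC3, without the 8 genes and the listed partners, and classes were named by marker lists. Counts were summed per embryo and class where at least 3 cells were present, giving 49 sums, of which 45 in 7 classes entered edgeR 4.0.16 (quasi-likelihood test, TMM, filterByExpr, Benjamini-Hochberg adjustment over 13906 genes). A call took an adjusted p up to 0.05 with a log2 fold change beyond 1, or beyond 2 between the E4.5 lineages. Tests are two-sided. Levels are CPM, and CPM + 1 was used for logarithms. Shares of cells used counts thinned to 300000 per cell. Depth per cell was 66896 to 3792936 counts. Reads carry no molecular identifiers, so counts are not independent molecules.

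The members and lists were chosen with earlier results of these data known. Named genes are the 8 members, up to 3 called genes of a list with the smallest adjusted p in a comparison, and the 2 genes most like each member by Spearman correlation. Where 1 embryo gave both classes, sums share an animal, and their deviations from the class means correlated at 0.0276 to 0.126 at E4.5 (10011 genes) and 0.0133 to 0.069 at E6.5 (8935 genes). The fit was tested on simulated data for each comparison. Alternatives were DESeq2 1.42.0, its size factors, no low-count filter, edgeR's glmTreat with a log2 limit of 1, wells with 1 cell only and Ward clustering of 15 components. Others were sums of at least 6 cells, unnumbered E3.5 or E6.75 cells left out, E6.5 epiblast as 1 class, an embryo block, no thinning and a limit of 10 CPM. Embryos with E4.5 sums, E6.5 endoderm-like sums on plates or E6.5 epiblast-like sums without plate name were left out in turn. No E5.5 or numbered E3.5 embryo was. Sums of at least 6 cells leave only 1 embryo each in the E4.5 epiblast and the E6.5 endoderm, and none of P8 at E3.5. Leaving out E6.5 embryo 9 of P3 and the fit of the same embryos without a block were chosen after seeing the data. A gene that the rule for named genes picks by its likeness in pattern is not reported here.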

Additional observations from a re-analysis of the deposited data

Results flagged for a closer look

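Of 56 sets of sums of 1 gene in 1 class, 10 held a highest or lowest embryo far from the others. Chance gives about 1 in 20 only for normally distributed values of equal variance. Some flagged sets hold low values, with medians of 0.192 CPM for Dnmt3l in the E6.5 endoderm and 0.263 for Tet3 at E3.5. Cell numbers also differ between sums, so the count of 10 cannot be set against that rate. Dnmt3l gave 4 of the 10 sets. In the E6.5 epiblast on plates, embryo 9 of P3 (7 cells) had 297 CPM against 32.5 in the next, and at E5.5 embryo 3 of plates P7.P4.P5 (23 cells) had 207.9 against 129.97. At E3.5 embryo 7 of P9 (17 cells) had 75.98 CPM of Dnmt3l against 37.3, and in the E6.5 endoderm embryo 6 of P2 (5 cells) had 4.72 against 1.34. Dnmt1 stood apart in E4.5 embryo 5, with 29.1 CPM in PrE against 60.3 in the next, and in E4.5 embryo 4, with 143.6 in the epiblast against 80.8. Dnmt3a had 529 CPM in embryo 2 of the E6.5 epiblast without plate name, against 369, from 4 cells. Tet2 had 12.8 CPM in embryo 8 of P3 in the E6.5 epiblast, against 2.15. Tet3 had 6.82 CPM in embryo 6 of P9 at E3.5, against 3.26, and 47.4 in the endoderm of E6.5 embryo 2 of P1, against 12.9, from 3 cells.

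The lineage difference of Dnmt3b, endoderm against epiblast, differed between E6.5 and E4.5 by a log2 value of −1.64 in edgeR's interaction test (SE 0.48, adjusted p = 0.0365).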

How the results depend on the processing

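Of 942 values of the members under the alternatives, 846 kept their direction and side of the limits, 30 lost a pass and 16 gained one. Another 50 changed sign, none of which passed with either setting, such as Uhrf1 in the E4.5 epiblast against E3.5, at −0.19 with Ward clustering against 0.29. Tested against a log2 limit of 1, the number of members called was 0 in PrE against epiblast at E4.5, 0 on E6.5 plates against E5.5, 1 between the E6.5 lineages and 1 along the endoderm, both Dnmt3l. Ward clustering, with 46 cells in its E4.5 epiblast-like class, gave 0 between the E4.5 lineages, where Tet1 lost its pass. Sums of at least 6 cells gave 1 (Dnmt3a) for the E6.5 epiblast without plate name against E5.5, from the embryos titled E6.75 alone.

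Leaving out an E4.5 or E6.5 embryo in turn gave 3 to 4 members for PrE against E3.5, 0 to 1 between the E4.5 lineages, 2 to 3 for E5.5 against the E4.5 epiblast, 3 to 5 between the E6.5 lineages and 2 to 3 along the endoderm. E5.5 and numbered E3.5 embryos were not left out. Without E6.5 embryo 9 of P3, left out after seeing the data, 2 members passed on E6.5 plates against E5.5.

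With the embryo as a block, 2 members passed between the E6.5 lineages, and 2 in the same embryos without a replicate block, while the share of all tested genes called went from 11.2% to 2.12% and 2.54%, in fits with fewer sums and 8935 genes. The block changed no member's call between the E4.5 lineages. Counts of calls over all genes that moved by over 1.5 times were, with sums of at least 6 cells, 3233 against 1722 on E6.5 plates. Counts with the E4.5 epiblast or the E6.5 endoderm are left out for this setting, which leaves only 1 embryo in each of these classes. DESeq2 called 1226 against 753 between the E4.5 lineages and 1344 against 866 for E5.5, and Ward clustering 277 against 753. In PrE against epiblast at E4.5, leaving out an embryo gave 378 to 421. Against the log2 limit, the first 6 counts ran at 1800, 1700, 396, 455, 747 and 97, and the others at 632, 1216 and 20. Without the filter on low counts 2646 passed on E6.5 plates, and 1051 with the E6.5 epiblast as 1 class. In the comparisons of the E6.5 epiblast without plate name, leaving out E6.75 cells gave 75 calls against E5.5 and 65 against plates. The causes were not tested.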
